A study of Mus musculus with 29 samples.

Results

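The 10 genes described here encode enzymes that modify and crosslink collagen, and 1 helper protein of collagen maturation. They were taken by symbol from a table of 29,955 genes: the lysyl oxidases Lox, Loxl1, Loxl2 and Loxl3, the lysyl hydroxylases Plod1, Plod2 and Plod3, the prolyl 4-hydroxylase alpha subunits P4ha1 and P4ha2, and Pcolce, the procollagen C-endopeptidase enhancer. All 10 were above 0 in all 24 libraries used and all averaged 0.5 FPKM or more, the filter that 12,759 genes passed. FPKM count sequenced fragments per length of transcript and per mapped fragment.

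Male C57BL/6J mice (strain C57BL6 in the labels), 3 months old at the start, drank water with 0.3 mg/ml L-NAME, which blocks nitric oxide synthase, and 1% NaCl for 5 weeks. From 1 week on they also received 0.7 mg/kg/day angiotensin II, a vasoconstrictor peptide, from a 28-day pump. Heart failure (HF) hearts were taken at weeks 3 and 5, and recovery hearts at weeks 7, 9, 11, 13 and 19, with all agents withdrawn. Control week 19 hearts came from untreated mice of the same age as the Recovery week 19 hearts. These 2 groups were taken 14 weeks later than the hearts of HF week 5. Those of HF week 3 and of Recovery weeks 7 to 13 were also taken earlier than Control week 19. In each comparison of different weeks, the treatment or recovery and this gap in age cannot be told apart. Libraries numbered 5 in Control week 19, 2 in HF week 3, 3 in HF week 5, 2 in Recovery week 7, 2 in Recovery week 9, 3 in Recovery week 11, 2 in Recovery week 13 and 5 in Recovery week 19. Each labelled sample is an animal, but the library numbers only name the columns of a group.

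Collagen is made as procollagen chains in the endoplasmic reticulum. There, prolyl 4-hydroxylases hydroxylate prolines, which makes the triple helix stable at body temperature, and lysyl hydroxylases hydroxylate lysines, which sets the type of crosslink and allows sugars to be attached. Outside the cell the ends of procollagen are cut off, a step that Pcolce speeds up at the C-terminal end, and lysyl oxidases turn lysines and hydroxylysines into reactive aldehydes that join collagen or elastin molecules. In the heart, fibroblasts are the main source of fibrillar collagen, and crosslinks make the scar stiffer and harder to degrade.

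Some libraries stood apart before any comparison of the enzymes. Myh6, the main myosin heavy chain of the mouse ventricle, was listed at 0 in the 13 libraries from HF week 5 and from the recovered and control hearts of week 19 and was 37,546 to 316,195 FPKM in the 11 others. A comparison of HF week 3 or of Recovery weeks 7 to 13 with Control week 19 or HF week 5 crosses these 2 sets, and the set and the group cannot be told apart there. In HF week 3 library 1, 12,816 genes were above 0, where the others had 16,339 to 18,091, and its low values gave no estimate of depth. Relative depth was 0.728 to 1.40 in the other 23 libraries and the absolute depth is unknown. The HF libraries also stood apart in an atrial gene. Myl7, an atrial myosin light chain, was 1,805 and 5,773 FPKM in HF week 3 and 18,388, 152 and 6.16 in HF week 5, whereas no library of another group exceeded 3.56, although the labels name the tissue as whole ventricle.

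Levels differed widely between the 10 genes on the FPKM scale, which corrects for transcript length. At Control week 19, Pcolce was the highest of the 10 genes (58.8 ± 5.46 FPKM, SD, n = 5), followed by Plod1 (39.2 ± 2.14), P4ha2 (26.9 ± 2.37), Loxl1 (20.7 ± 1.77), Plod3 (16.0 ± 1.24) and P4ha1 (15.9 ± 2.26). Plod2 (5.24 ± 0.398), Loxl2 (3.44 ± 0.414), Loxl3 (1.18 ± 0.185) and Lox (0.409 ± 0.15) were lower. Lox, which gives the family its name, was thus the lowest of these 4 oxidases, although Loxl4, which did not pass the filter, was lower still (0.137 ± 0.0469 FPKM), and for Lox only 7.43% of the genes tested had a lower mean over all libraries. Loxl1, known for its part in elastic fibres, made up 80.4% ± 2.69 of the summed FPKM of the 4 lysyl oxidases at Control week 19, and its mean share was 75.7% to 85.6% in the other 7 groups. P4ha2 made up 62.8% ± 3.87 of the 2 alpha subunits at Control week 19.

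**Figure D1:**
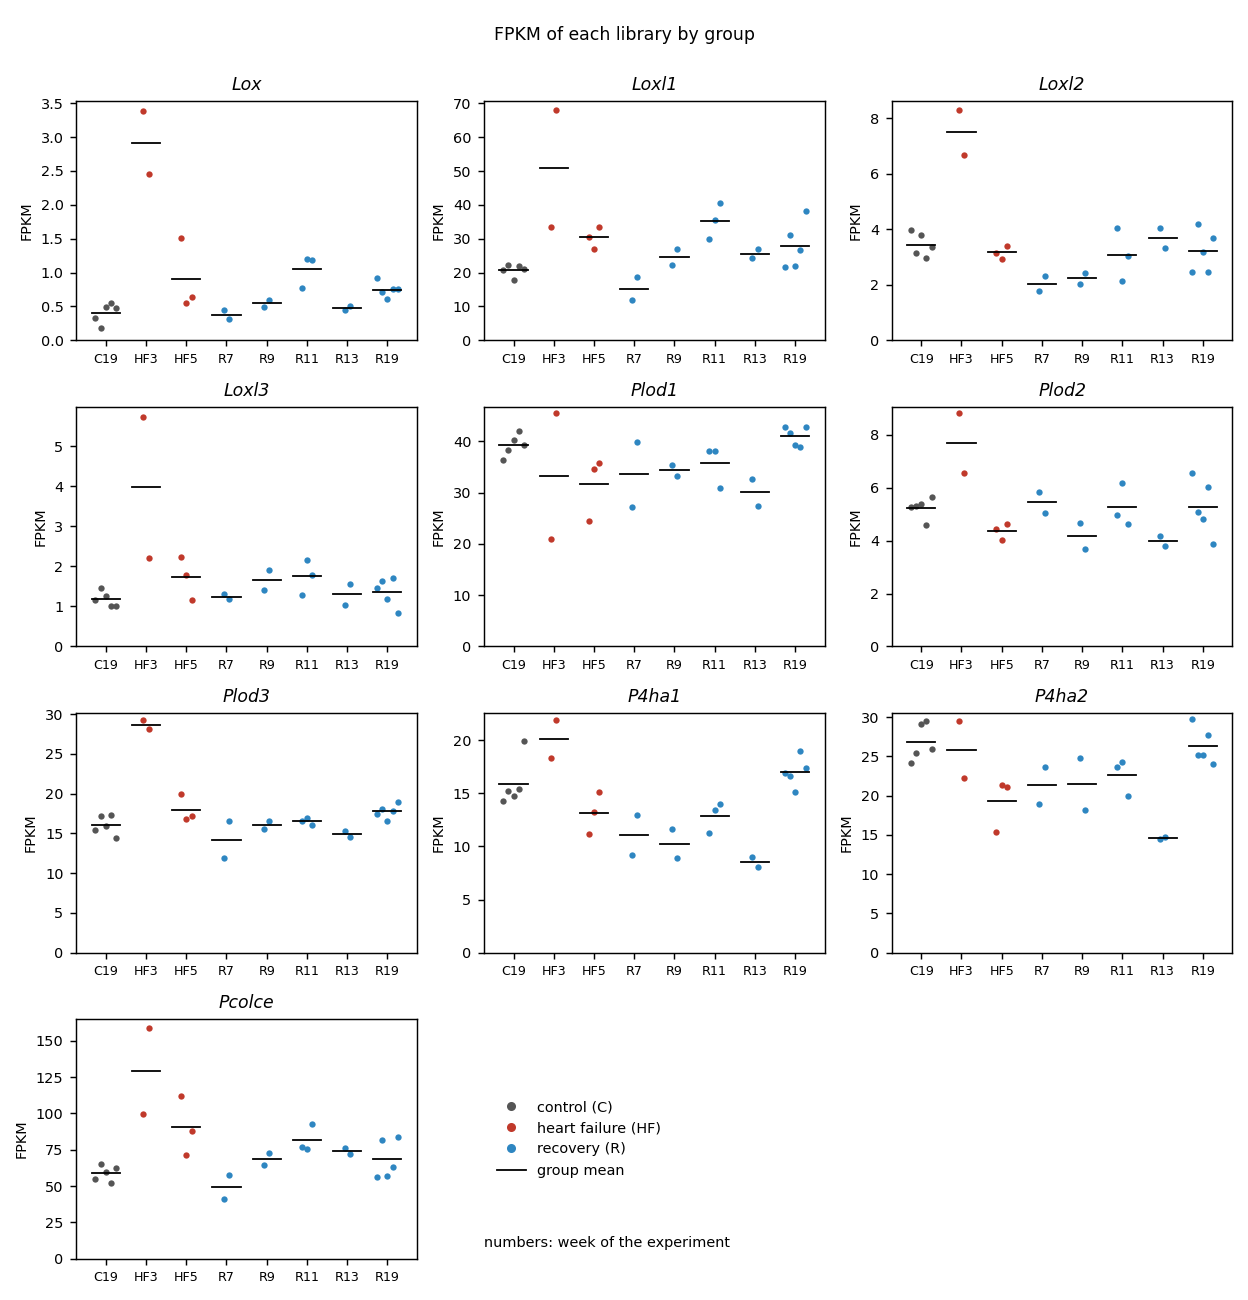
FPKM (y axis, from 0) of each of the 10 genes in every library, by group (x axis: C control, HF heart failure, R recovery, with the week of the experiment); points are libraries and bars are group means. The 2 libraries of HF week 3 lie above all 5 libraries of Control week 19 for Lox, Loxl1, Loxl2, Loxl3, Plod2, Plod3 and Pcolce, and both libraries of Recovery week 13 lie below them for P4ha1 and P4ha2.

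HF week 3 asks which enzymes had moved before the end of the induction, beside controls that were older, taken at week 19. In HF week 3 against Control week 19, 7 of the 10 genes were up regulated and none down regulated at an adjusted p under 0.05 from limma, while 50.7% of all genes tested were called in this comparison and 23.1% were called upward. All 4 lysyl oxidases, Plod2, Plod3 and Pcolce were the genes called. The median log2 fold change of the 10 genes was 0.92, beside -0.05 over all genes tested. For these 7 genes the groups did not overlap, as for 21.4% of all genes in the upward direction. Fold changes are on the log2(FPKM + 0.5) scale throughout, which understates those of low genes such as Lox.

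Lox was 3.38 and 2.46 FPKM in the 2 HF week 3 libraries and 0.336, 0.183, 0.494, 0.555 and 0.475 in Control week 19. Both HF libraries were thus far above every control, and the log2 difference was 1.91 (SE 0.227, limma adjusted p = 2.64e-06). Loxl1 was 33.5 and 68.0 FPKM against 20.9, 22.2, 17.7, 21.8 and 21.2 in control. Its 2 HF libraries differed widely from each other but both exceeded the controls (1.19, SE 0.237, adjusted p = 0.000464 from limma), and without library 2 the value was 0.68 (adjusted p = 0.0273 from limma). Loxl2, an oxidase that acts on fibrillar and basement membrane collagen, was 8.31 and 6.67 FPKM against 3.96, 3.14, 3.78, 2.98 and 3.35 (1.02, SE 0.199, adjusted p = 0.000384 from limma). Loxl3, a close relative of Loxl2, was 5.74 and 2.22 FPKM against 1.16, 1.45, 1.26, 1.01 and 1.01 (1.3, SE 0.269, adjusted p = 0.00062 from limma). The higher value came from HF week 3 library 1, the library with few genes above 0, and without it the log2 fold change of Loxl3 was 0.70 with an adjusted p of 0.0662 from limma.

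Of the lysyl hydroxylases, Plod3 was 29.3 and 28.1 FPKM in HF week 3 against 15.4, 17.2, 15.9, 17.3 and 14.4 in control. Plod3, which also attaches sugars to hydroxylysine, was the most even of the up regulated genes between the 2 HF libraries (0.82, SE 0.114, adjusted p = 1.55e-05 from limma). Plod2, the hydroxylase of the telopeptide lysines that give the stable pyridinoline crosslinks of scars, was 8.81 and 6.57 FPKM against 5.26, 5.31, 5.38, 4.59 and 5.67 (0.50, SE 0.164, adjusted p = 0.0159 from limma). Without HF week 3 library 1 its log2 fold change was 0.30 with an adjusted p of 0.265 from limma. Plod1, which hydroxylates lysines of the helix, was not called. It was 21.0 FPKM in HF week 3 library 1 and 45.5 in library 2, on either side of the controls at 36.3, 38.3, 40.3, 42.0 and 39.2, and its log2 fold change of -0.34 became 0.21 (adjusted p = 0.422 from limma) without library 1 and -0.89 (adjusted p = 0.000568) without library 2. Plod3 thus made up 42.3% ± 10.3 of the summed FPKM of the lysyl hydroxylases in HF week 3 (n = 2) and 26.5% ± 1.52 at Control week 19, and Plod1 46.1% ± 15.1 and 64.8% ± 1.37.

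Pcolce was 99.7 and 159 FPKM in HF week 3 against 55.2, 65.5, 59.4, 51.8 and 62.2 in control (1.10, SE 0.202, adjusted p = 0.000234 from limma). The prolyl 4-hydroxylase subunits were not called at this time. P4ha1, the subunit that most cell types use, was 18.3 and 21.9 FPKM against 14.3, 15.2, 14.8, 15.4 and 19.9 (0.33, SE 0.158, adjusted p = 0.0895 from limma). Without Control week 19 library 5, its highest control, it was 0.41 and called (adjusted p = 0.0299 from limma), and without HF week 3 library 2 it was 0.20 (adjusted p = 0.392 from limma). P4ha2, a subunit rich in cartilage and endothelium, was 29.5 and 22.2 FPKM against 24.2, 25.5, 29.2, 29.5 and 25.9 (-0.07, SE 0.155). Both ranges overlapped with control.

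Since these comparisons cross the 2 sets of libraries, HF week 3 was also set against Recovery week 7, the nearest group of its own set, a comparison added after the split had been seen. Of the 10 genes, 7 were up regulated in HF week 3 (Lox, Loxl1, Loxl2, Loxl3, Plod3, P4ha1 and Pcolce), while 40.2% of all genes tested were called, 18.4% upward. Lox was higher by 1.95 (SE 0.271, adjusted p = 2.92e-05), Loxl2 by 1.65 (SE 0.238, adjusted p = 4.05e-05), Plod3 by 1.01 (SE 0.136, adjusted p = 2.16e-05) and P4ha1 by 0.84 (SE 0.189, adjusted p = 0.00187), all from limma. The same 7 genes were called when only the 11 libraries of this set were fitted. The share of all genes called in that fit is not given here. Recovery week 7 had the lowest group mean of all for Lox, Loxl1, Loxl2, Plod3 and Pcolce, and P4ha1 lay below every control there. These differences are thus measured from a low point. Of the markers, 5 of 5 activated fibroblast, 6 of 9 fibroblast, 4 of 7 smooth muscle and pericyte, 4 of 6 endothelial, 4 of 7 macrophage, 3 of 4 mesothelial and 3 of 4 atrial genes were called higher than in Recovery week 7, and 3 of 8 ventricular and 1 of 4 atrial genes lower. The atrial gene called lower was Nppa, listed at 0 in HF week 3. With only the 4 libraries of the 2 groups in the limma fit, none of the 10 genes was called, and 6 of the 10 and 20.6% of all genes passed an unadjusted p under 0.05.

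Several cell type markers moved with these values. All 5 markers of activated fibroblasts that could be tested, of 7 in the list, were up regulated in HF week 3 against control, and the sum of the 7 was 143 to 146 FPKM against 17.1 to 24.8. Of the 9 fibroblast markers 6 were called higher, with a sum of 808 to 1,006 FPKM against 328 to 482, as were 3 of the 4 mesothelial and epicardial markers, with a sum of 47.4 to 182 FPKM against 1.85 to 3.28. The 5 atrial markers summed to 7,737 to 14,050 FPKM against 89.6 to 349, with Nppa and Bmp10 listed at 0 in HF week 3. The sums of the smooth muscle and pericyte (199 to 223 FPKM against 108 to 136), endothelial (255 to 334 against 179 to 205) and macrophage markers (475 to 481 against 244 to 421) also lay above every control, with 4 of 7, 4 of 6 and 2 of 7 called higher and 0, 1 and 1 called lower. Of the 8 ventricular cardiomyocyte markers 4 were called lower and 1 higher, with a median log2 fold change of -0.57. The 1 higher was Myh6, listed at 0 in Control week 19, and the only atrial marker called lower was Nppa. The part of these cells in the enzymes' values was not tested. In tissue as a whole, fewer cells of a type and less RNA per cell cannot be told apart.

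**Figure D2:**
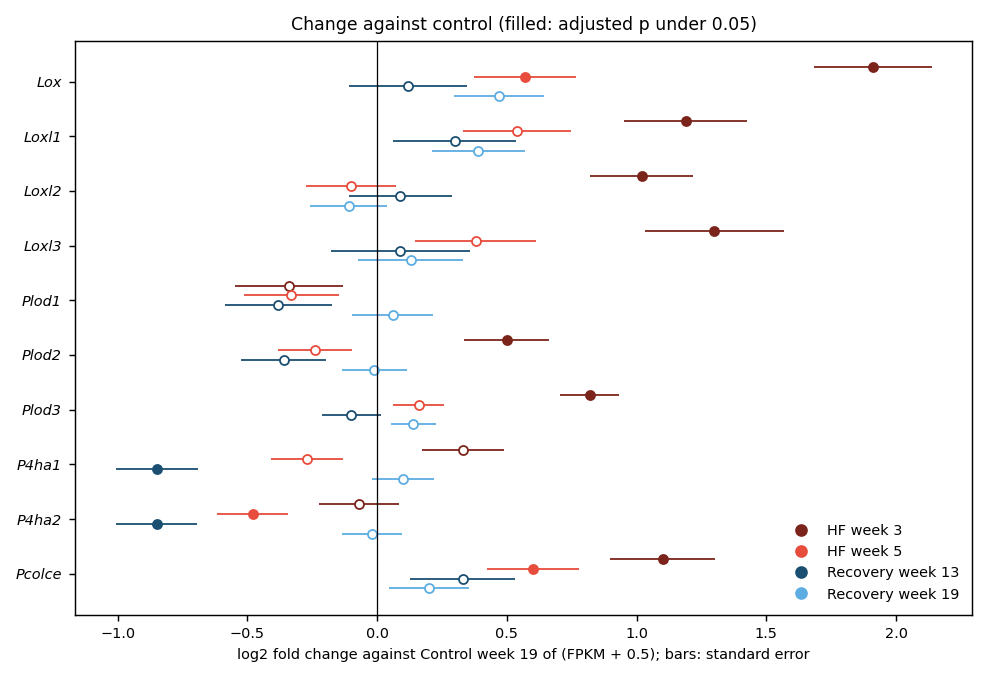
Log2 fold change of (FPKM + 0.5) against Control week 19 (x axis) for each gene at HF week 3, HF week 5, Recovery week 13 and Recovery week 19, with standard errors as bars; filled points passed an adjusted p under 0.05 in limma. Filled points lie to the right of 0 for 7 genes at HF week 3, and the only filled points to the left of 0 are P4ha2 at HF week 5 and P4ha1 and P4ha2 at Recovery week 13.

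HF week 5, the end of the induction, was compared with Control week 19 within 1 set of libraries. Lox and Pcolce were up regulated and P4ha2 was down regulated, so that 3 of the 10 genes were called, a share close to the 24% of all genes tested that were called in this comparison. The median log2 fold change of the 10 genes was 0.03, beside 0.04 over all genes. All 3 calls rested on HF week 5 library 1, the library with the highest Myl7: without it none of the 10 genes was called by limma, although 10.7% of all genes still were, and 3 of the 10 (Loxl1, P4ha2 and Pcolce) and 26% of all genes passed an unadjusted p under 0.05.

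Pcolce was 112, 71.5 and 88.0 FPKM in HF week 5, all above the highest control of 65.5, a log2 difference of 0.60 (SE 0.177, limma adjusted p = 0.019). Without HF week 5 library 1 it was 0.43 with an adjusted p of 0.155 from limma. Lox was 1.51, 0.549 and 0.636 FPKM, so that 1 library was high and 1 lay within the control range (0.57, SE 0.198, adjusted p = 0.0409 from limma). The call on Lox held in 7 of the 16 other settings with an adjusted p, and without library 1 the value was 0.28 (adjusted p = 0.36 from limma). It was also lost without Control week 19 library 1, 2 or 3, at adjusted p = 0.0784, 0.0993 and 0.0524 from limma. P4ha2 was 15.4, 21.4 and 21.1 FPKM, all below the lowest control of 24.2 (-0.48, SE 0.135, adjusted p = 0.0153 from limma). Without library 1 the value was -0.33 (adjusted p = 0.143 from limma).

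Loxl1 was 30.6, 27.0 and 33.6 FPKM in HF week 5, also without overlap with control, and its log2 fold change of 0.54 (SE 0.207) missed the threshold at an adjusted p of 0.0644 from limma. Here library 1 did not stand apart, and the value was 0.53 without it. Loxl1 passed when only the 13 libraries of the same set were fitted (adjusted p = 0.029 from limma), and Lox did not. Plod1 was 24.4, 34.6 and 35.8 FPKM, all below the lowest control of 36.3 (-0.33, SE 0.182, adjusted p = 0.205 from limma). P4ha1 was 11.2, 13.2 and 15.1 FPKM (-0.27, SE 0.138, adjusted p = 0.167 from limma). Loxl2, Loxl3, Plod2 and Plod3 overlapped with control, with log2 fold changes of -0.10, 0.38, -0.24 and 0.16. Of the 10 genes, 4 had no overlap between the groups, as had 29.5% of all genes.

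The HF week 5 libraries also differed in their cell type markers. The activated fibroblast markers summed to 88.8, 44.7 and 61.9 FPKM in libraries 1, 2 and 3, above the highest control of 24.8. The mesothelial and epicardial markers summed to 70.9, 25.4 and 10.2 FPKM, and the atrial markers to 81,734, 2,515 and 2,229 FPKM. Library 1 was highest in these 3 sums and also in Lox, Loxl3, Plod3 and Pcolce, and lowest in Plod1, P4ha1 and P4ha2. The fibroblast markers, of which 6 of 9 were called higher than in control, summed to 979, 493 and 772 FPKM, and the macrophage markers, with none of 7 called by limma and 1 past an unadjusted p under 0.05, to 559, 303 and 428 FPKM. The smooth muscle and pericyte markers (5 of 7 called higher) summed to 185, 264 and 183 FPKM and the endothelial markers (3 of 6 called higher) to 269, 212 and 282 FPKM, so that library 1 was not the highest of these. Their control sums were at most 136 and 205 FPKM. The ventricular cardiomyocyte markers summed to 25,286 FPKM in library 1, below every control (38,566 or more), and to 46,135 and 40,981 FPKM in the other two. Their part in the enzymes' values was not tested.

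The 2 HF times differed from each other. In HF week 3 against HF week 5, 6 of the 10 genes were up regulated (Lox, Loxl2, Loxl3, Plod2, Plod3 and P4ha1) and none was down regulated, while 21.4% of all genes were called, 8.28% upward. Plod3 was 19.9, 16.8 and 17.2 FPKM in HF week 5, below both libraries of HF week 3 (0.66, SE 0.124, adjusted p = 0.0031 from limma). Loxl2 was 3.16, 2.93 and 3.40 FPKM (1.12, SE 0.217, adjusted p = 0.00385 from limma), so that its HF week 5 values lay in or just under the control range. Plod2 was 4.45, 4.03 and 4.63 FPKM (0.74, SE 0.179, adjusted p = 0.0121 from limma). This comparison crosses the 2 sets, and without HF week 3 library 1 the count was 2 (Loxl1 and Plod3), with 1.31% of all genes called. Of the markers, 3 of 5 activated fibroblast, 3 of 9 fibroblast, 2 of 7 smooth muscle and pericyte and 2 of 4 mesothelial genes were called higher in HF week 3, as was 1 of 8 ventricular genes, while 3 of 8 ventricular and 1 of 4 atrial genes were called lower. The ventricular gene called higher was Myh6, listed at 0 in HF week 5. The atrial gene called lower was Nppa, listed at 0 in HF week 3. The part of these cell types was not tested.

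**Figure D3:**
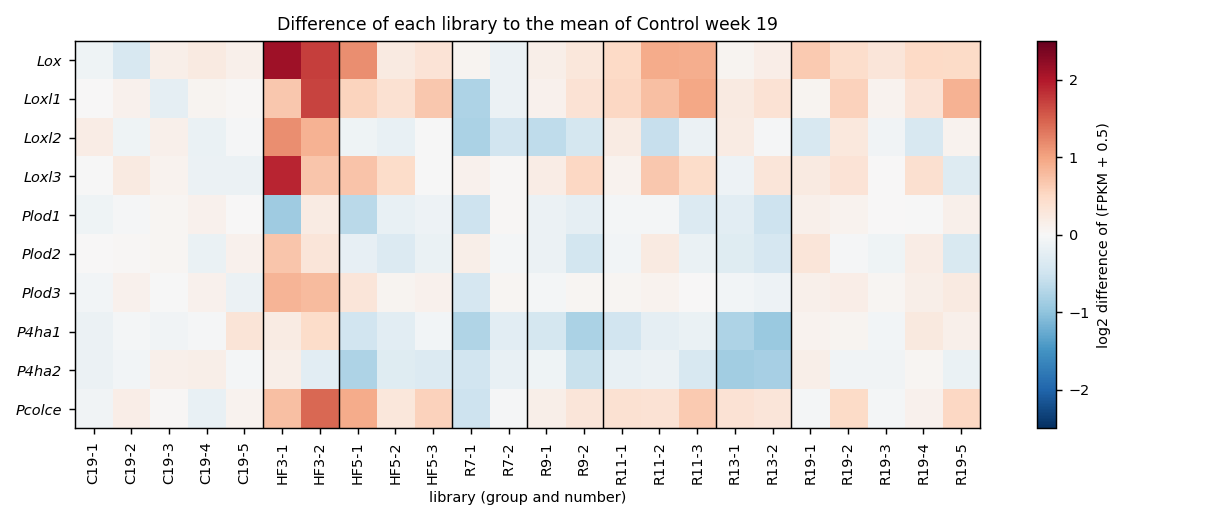
Log2 difference of (FPKM + 0.5) of each library (columns, grouped by week, numbers within a group) from the mean of Control week 19, for each gene (rows); red is higher and blue lower. Lox reads 2.11 and 1.72 in the 2 HF week 3 libraries and 1.16, 0.22 and 0.34 in the 3 of HF week 5.

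Recovery was compared with the end of induction at 2 times. In Recovery week 7 against HF week 5, Loxl1 and Pcolce were down regulated and no gene of the 10 was up regulated, while 14.8% of all genes were called, 6.75% downward. Loxl1 was 11.8 and 18.6 FPKM in Recovery week 7, below all 3 libraries of HF week 5 (-1.01, SE 0.259, adjusted p = 0.0147 from limma). Pcolce was 40.8 and 57.3 FPKM (-0.87, SE 0.221, adjusted p = 0.0134 from limma). The 2 genes thus had their lowest group means at this time, 15.2 ± 4.76 and 49.1 ± 11.7 FPKM (SD, n = 2). This comparison also crosses the sets. Without Recovery week 7 library 1, the lower of the 2 for both genes, neither was called by limma (3.58% of all genes were), while both passed an unadjusted p under 0.05, as did 21.8% of all genes, and without HF week 5 library 1 only Loxl1 was. At an unadjusted p under 0.05, 5 of the 10 genes and 29.8% of all genes passed. Cell type markers were lower too. The activated fibroblast markers (5 of 5 tested called lower) summed to 15.4 to 17.7 FPKM in Recovery week 7 against 44.7 to 88.8 in HF week 5, and the fibroblast markers (3 of 9 called lower) to 360 to 440 against 493 to 979. Of the smooth muscle and pericyte, endothelial, macrophage, atrial and mesothelial markers, 3 of 7, 3 of 6, 2 of 7, 4 of 4 and 3 of 4 that could be tested were called lower. The part of these cells was not tested.

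In Recovery week 19 against HF week 5, which lies within 1 set, P4ha2 was the only gene called of the 10, against 24.2% of all genes. P4ha2 was 29.8, 25.2, 25.2, 27.8 and 24.0 FPKM in Recovery week 19, all above HF week 5 (0.45, SE 0.135, adjusted p = 0.0203 from limma). Without HF week 5 library 1 the value was 0.30 (adjusted p = 0.167 from limma). P4ha1 was 16.9, 16.6, 15.1, 19 and 17.4 FPKM, with the lowest of these just above the highest of HF week 5 (0.36, SE 0.138, adjusted p = 0.06 from limma). Plod1 was 42.7, 41.6, 39.2, 38.9 and 42.7 FPKM, also without overlap (0.39, SE 0.182, adjusted p = 0.125 from limma). P4ha1 and Plod1 passed when only the libraries of the set were fitted, with adjusted p = 0.0438 and 0.0253 from limma. Without HF week 5 library 1 their values were 0.26 and 0.22 (adjusted p = 0.294 and 0.517 from limma), and without library 3 P4ha1 was called (0.47, adjusted p = 0.0403 from limma). Pcolce was 56.5, 81.6, 57.2, 63.2 and 83.9 FPKM, which overlapped with HF week 5 (-0.40, SE 0.177, adjusted p = 0.107 from limma), and was called without HF week 5 library 2 (-0.56, adjusted p = 0.0447 from limma). The lysyl oxidases overlapped too, with log2 fold changes of -0.25 to -0.01. In all, 3 of the 10 genes had no overlap between these groups, as had 26.7% of all genes, and 4 passed an unadjusted p under 0.05 (Plod1, P4ha1, P4ha2 and Pcolce), as did 36.8% of all genes. Cell type markers moved here as well: 5 of 5 activated fibroblast, 6 of 7 smooth muscle and pericyte, 4 of 4 atrial, 4 of 4 mesothelial, 3 of 9 fibroblast and 2 of 6 endothelial markers that could be tested were called lower, and 1 of 7 smooth muscle and pericyte and 1 of 8 ventricular markers higher. Their part was not tested.

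Recovery week 19 against Control week 19 asks whether the recovered hearts still differed from hearts of the same age. None of the 10 genes was called by limma, and 0.0235% of all genes were. At an unadjusted p under 0.05, 2 of the 10 genes passed, Lox and Loxl1, and 2.88% of all genes. At that p, 4 of 7 macrophage, 3 of 9 fibroblast and 1 of 5 activated fibroblast markers were also higher, and none of them was called by limma. The part of these cells was not tested. Lox was 0.917, 0.706, 0.615, 0.76 and 0.751 FPKM in Recovery week 19, and all 5 exceeded the highest control of 0.555, as did 0.925% of all genes in this direction. Its log2 fold change was 0.47 (SE 0.172, limma adjusted p = 1) and stayed between 0.32 and 0.79 in the other settings. Loxl1 was 21.7, 31.0, 21.9, 26.6 and 38.3 FPKM, of which 2 lay within the control range (0.39, SE 0.179, limma adjusted p = 1). Libraries 2 and 5, the highest 2 for Loxl1, also had the highest sums of fibroblast markers (626 and 676 FPKM, others 416 to 502) and of macrophage markers (601 and 666 FPKM, others 304 to 410) and the lowest relative depth of the group (0.844 and 0.728), and the part of these was not tested. The other 8 genes had log2 fold changes of -0.11 to 0.20 and overlapped with control, among them Pcolce at 0.20 (SE 0.153) and P4ha2 at -0.02 (SE 0.117).

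The weeks in between were also compared with Control week 19, across the 2 sets. None of the 10 genes was called by limma in Recovery week 7, 9 or 11 against Control week 19, where 0.047%, 0.0549% and 0.149% of all genes were called. At an unadjusted p under 0.05 the counts were 3, 3 and 4 of the 10 genes, and 3.61%, 3.6% and 8.45% of all genes. Those at weeks 7 and 9 were Loxl2, P4ha1 and P4ha2, all lower, and those at week 11 were Lox, Loxl1 and Pcolce, which were higher, and P4ha1, which was lower. P4ha1 had log2 fold changes of -0.51, -0.61 and -0.29 at these times. Loxl2 was 1.77 and 2.32 FPKM at week 7 and 2.04 and 2.42 at week 9, below every control library, and 4.04, 2.15 and 3.03 at week 11. P4ha1 and P4ha2 at week 7, P4ha1 and Plod1 at week 9 and P4ha1 at week 11 also lay below every control, so that 3, 3 and 1 of the 10 genes did, beside 7.69%, 7.87% and 4.21% of all genes. Loxl1 lay above every control at week 9, as did 7.33% of all genes.

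Lox, Loxl1 and Pcolce had their highest means of the recovery at week 11. Lox was 0.445 and 0.315 FPKM at week 7 and 0.498 and 0.597 at week 9. It was 0.771, 1.20 and 1.19 FPKM at week 11 and 0.446 and 0.511 at week 13. Every week 11 library was thus above every control library, as for 5.75% of all genes in this direction (0.78, SE 0.198, adjusted p = 0.139 from limma). Loxl1 was 22.3 and 26.9 FPKM at week 9, 29.9, 35.4 and 40.6 in the 3 libraries of week 11, and 24.2 and 26.9 at week 13. Its week 11 value against control was 0.75 (SE 0.207, adjusted p = 0.179 from limma). Pcolce was 64.6 and 72.4 FPKM at week 9, 76.7, 75.6 and 92.9 in the libraries of week 11, and 75.9 and 72.3 in those of week 13 (week 11 against control 0.47, SE 0.177, adjusted p = 0.406 from limma). In Recovery week 11 against Recovery week 7, which stays within 1 set and was also added after the split had been seen, none of the 10 genes was called by limma and 0.11% of all genes were. At an unadjusted p under 0.05, 4 of the 10 passed (Lox, Loxl1, Loxl2 and Pcolce, all higher at week 11) and 10.9% of all genes. The smallest p was that of Loxl1, higher by 1.21 on the log2 scale (SE 0.259, limma adjusted p = 0.0648), and it was called when the HF week 3 libraries were left out of the fit. The fibroblast markers summed to 360 to 440 FPKM at week 7 and 591 to 967 at week 11, with 8 of 9 past an unadjusted p under 0.05. The macrophage markers summed to 202 to 247 FPKM and 453 to 643, with 6 of 7 past it and a median log2 fold change of 1.21, beside 0.76 for the fibroblast markers. The activated fibroblast markers summed to 15.4 to 17.7 FPKM and 24.2 to 61.3, with 4 of the 5 tested past it and a median of 1.23. No gene of these lists was called by limma. Against Control week 19, 8 of 9 fibroblast, 5 of 5 activated fibroblast and 7 of 7 macrophage markers were higher at week 11 at that p, of which 1, 1 and 0 were called by limma, and the part of these cells was not tested.

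P4ha1 and P4ha2 had their lowest levels at Recovery week 13. P4ha1 was 8.98 and 8.11 FPKM and P4ha2 14.5 and 14.8 FPKM, below all 5 control libraries of each. Plod1 (27.4 to 32.7 FPKM) and Plod2 (3.79 to 4.17 FPKM) also lay below every control library, so that 4 of the 10 genes did, as for 13.6% of all genes in this direction. Loxl1 and Pcolce lay above every control library at this time, as did 13.1% of all genes. Against Control week 19 both were down regulated by the same amount, -0.85 (SE 0.158, adjusted p = 0.0418 from limma) for P4ha1 and -0.85 (SE 0.155, adjusted p = 0.041 from limma) for P4ha2. They were the only genes of the 10 called, in a comparison in which 0.0784% of all genes were called. The comparison crosses the sets, and both values lay close to the threshold: with libraries centred on their medians none was called, with quantile normalization P4ha2 alone was, and of the 7 fits that left out 1 library, only that without Control week 19 library 5 called them. Earlier, P4ha1 was 9.22 and 13 FPKM (week 7), 11.6 and 8.91 FPKM (week 9) and 11.3, 13.4 and 14.0 FPKM (week 11). P4ha2 was 19 and 23.7 FPKM (week 7), 24.8 and 18.2 FPKM (week 9) and 23.6, 24.3 and 20 FPKM (week 11). Week 13 was thus the lowest time for both, although P4ha1 had 1 library at week 9 within the range of week 13. In Recovery week 13 against Recovery week 11, within 1 set and likewise added, P4ha1 was -0.56 (SE 0.172) and P4ha2 -0.60 (SE 0.169), with adjusted p = 0.723 and 0.586 from limma. Of all genes tested 0% were called there, and 3 of the 10 (Lox, P4ha1 and P4ha2, all lower) and 3.86% of all genes passed an unadjusted p under 0.05. The macrophage markers summed to 539 to 711 FPKM at week 13 against 244 to 421 at Control week 19, with 7 of 7 higher at an unadjusted p under 0.05, and the smooth muscle and pericyte markers to 97.5 to 99.7 against 108 to 136, with 2 of 7 lower at that p. The fibroblast markers summed to 539 to 685 FPKM against 328 to 482, with 3 of 9 higher at that p. None of these 3 lists had a gene called by limma, and the part of these cells was not tested. For Recovery week 13 against Control week 19, the share of all genes past that unadjusted p is not given here. The share of P4ha1 in the 2 subunits was 36.8% ± 1.99 at week 13 and 37.2% ± 3.87 at Control week 19.

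**Figure D4:**
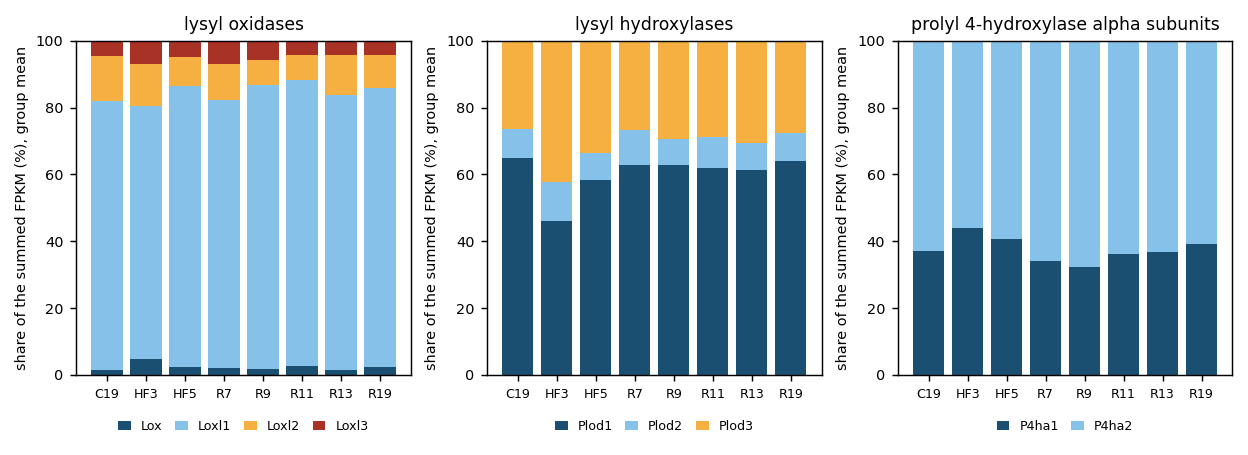
Share (%) of each gene in the summed FPKM of its family, as the mean over the libraries of each group (x axis labels as in the plot of FPKM by library), for the lysyl oxidases, the lysyl hydroxylases and the prolyl 4-hydroxylase alpha subunits. Loxl1 is the largest part of the lysyl oxidases in all 8 groups, and the share of Plod3 is highest at HF week 3, at 42.3%.

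The promoters of P4ha1 and P4ha2, which had their lowest levels together, and of Plod3 and Pcolce, which were higher in HF week 3, are shown with the core of the hypoxia response element, since prolyl 4-hydroxylases need oxygen and the genes of several collagen hydroxylases are known to respond to low oxygen. RefSeq promoters (GRCm38.p6, another build than that of the values) were at hand for 5 of the 10 genes, and the 250 bases before the start are printed 5′ to 3′. Capitals mark ACGTG or GCGTG on either strand, where CACGT and CACGC are the same letters on the other strand, and ACGTG is also part of the E-box CACGTG.
P4ha1, chr10:59323046-59323295, plus strand: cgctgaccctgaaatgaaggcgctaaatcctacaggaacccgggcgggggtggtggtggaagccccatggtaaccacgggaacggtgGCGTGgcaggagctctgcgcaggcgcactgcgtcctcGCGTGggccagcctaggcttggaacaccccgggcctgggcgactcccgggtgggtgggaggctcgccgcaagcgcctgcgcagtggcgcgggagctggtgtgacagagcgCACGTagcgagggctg
P4ha2, chr11:54100674-54100923, plus strand: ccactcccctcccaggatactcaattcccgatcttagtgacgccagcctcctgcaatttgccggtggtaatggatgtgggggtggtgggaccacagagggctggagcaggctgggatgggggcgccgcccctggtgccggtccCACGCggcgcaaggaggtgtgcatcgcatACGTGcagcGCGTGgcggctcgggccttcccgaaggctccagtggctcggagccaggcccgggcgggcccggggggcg
Plod3, chr5:136986769-136987018, plus strand: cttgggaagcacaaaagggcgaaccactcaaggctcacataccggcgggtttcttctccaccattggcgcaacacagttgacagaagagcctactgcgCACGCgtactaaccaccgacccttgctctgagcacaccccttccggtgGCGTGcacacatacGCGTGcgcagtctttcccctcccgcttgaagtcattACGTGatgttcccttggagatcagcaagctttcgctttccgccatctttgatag
Pcolce, chr5:137611405-137611654, minus strand: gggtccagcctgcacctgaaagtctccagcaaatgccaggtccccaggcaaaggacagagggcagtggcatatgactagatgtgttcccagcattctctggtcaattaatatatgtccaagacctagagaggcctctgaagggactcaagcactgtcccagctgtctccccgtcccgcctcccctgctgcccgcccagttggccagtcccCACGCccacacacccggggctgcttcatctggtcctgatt
The letters occur 3 times for P4ha1, at -163, -126 and -16 from the start, and 3 times for P4ha2, at -107, -78 and -69. Plod3 has 4 matches and Pcolce 1, and Plod1, not printed, has 1. Of all 32,851 promoters 38.6% hold at least 1 match in the same 250 bases, so that a match is common and describes the letters only. The share of promoters with 3 or more matches was not counted. Of 12 genes known to respond to hypoxia, 2 were up regulated and 7 down regulated in HF week 3 against Control week 19, 5 were down regulated and none up regulated in HF week 5 against Control week 19, and 4 were up regulated and none down regulated in Recovery week 19 against HF week 5. Of all genes 50.7%, 24% and 24.2% were called in these comparisons. The sum of the 12 was 684 to 699 FPKM in HF week 3, 649 to 826 in HF week 5, 968 to 1,076 in Control week 19 and 862 to 1,071 in Recovery week 19. At Recovery week 13, the time of the lowest P4ha1 and P4ha2, none of the 12 was called by limma, and 4 passed an unadjusted p under 0.05, all lower. The share of all genes past that p is not given for this comparison, so the 4 are a description only.

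The other genes of collagen processing numbered 24, of which 18 could be tested. The 6 others, Loxl4, P4ha3, Tll1, Tll2, Adamts3 and Adamts14, had means under 0.5 FPKM. In HF week 3 against Control week 19, 10 were up regulated and 3 down regulated, with a median log2 fold change of 0.60. In HF week 5, 3 were up regulated and 1 down regulated, with a median of 0.14, so that 4 of 18 were called beside 24% of all genes, and 13 of 18 beside 50.7% in HF week 3. The 3 were Leprel2, the older symbol of prolyl 3-hydroxylase P3h3 (0.78, adjusted p = 0.0183), Ppib, a proline isomerase that works with it (0.55, adjusted p = 0.0171), and Adamts2, which cuts off the N-terminal end of procollagen (0.74, adjusted p = 0.00934), all from limma. The down regulated gene was Glt25d1, the older symbol of the hydroxylysine galactosyltransferase Colgalt1, at 5.61 ± 0.214 FPKM (SD, n = 3) against 9.55 ± 2.12 (n = 5) in control (-0.69, adjusted p = 0.00639 from limma). It was also the 1 gene of the list up regulated in Recovery week 19 against HF week 5 (0.81, adjusted p = 0.00207 from limma), where Ppib was the 1 down regulated (-0.54, adjusted p = 0.0187 from limma). Of all genes 24.2% were called in Recovery week 19 against HF week 5. None of the 18 was called by limma in Recovery week 19 against Control week 19, and 2 passed an unadjusted p under 0.05, as did 2.88% of all genes. Serpinh1, the collagen chaperone HSP47 and the highest of the list in control, was 153 ± 13.8 FPKM in Control week 19, 114 ± 25.1 in HF week 5 and 160 ± 20.4 in Recovery week 19, and was called in none of these comparisons. Tgm2, a transglutaminase that forms another kind of crosslink, was 92.6 ± 15.9, 77.4 ± 20.5 and 95.0 ± 5.95 FPKM.

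The substrates were read from 8 genes for collagens I, III, IV and V and for elastin. All 8 were up regulated in HF week 3 against Control week 19 and 3 in HF week 5, where 50.7% and 24% of all genes were called, with median log2 fold changes of 2.15 and 0.51, beside 0.92 and 0.03 for the 10 genes described above. Their sum was 575 to 1,256 FPKM in HF week 3, 203 to 262 in HF week 5, 155 to 188 in Control week 19 and 178 to 200 in Recovery week 19. In Recovery week 19 against HF week 5, 2 of the 8 were down regulated, where 24.2% of all genes were called. In Recovery week 19 against Control week 19 none of the 8 was called by limma, nor did any pass an unadjusted p under 0.05. Of the substrates, 2 are also in the list of fibroblast markers.

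Among the 6,762 genes that averaged 5 FPKM or more, those with the most similar course over the 24 libraries were taken by Pearson's r on log2(FPKM + 0.5). These values are a description, since the libraries share their groups and the 2 sets. Pcolce was nearest to Bgn, the proteoglycan biglycan (r = 0.925), and Loxl1 to Mfap5, a microfibril protein (r = 0.916), and to Pcolce itself (r = 0.915). Without the HF week 3 libraries these were 0.88, 0.865 and 0.867 over 22 libraries. Lox was nearest to 6330406I15Rik (r = 0.924, and 0.846 without HF week 3), followed by Col5a2 (r = 0.907, and 0.741). Loxl2 was nearest to Dnajb11 (r = 0.836, and 0.608) and Loxl3 to Cttn (r = 0.89, and 0.687), followed by Leprel2 (r = 0.888, and 0.637). P4ha1 was nearest to Serpinh1 (r = 0.882, and 0.874 without HF week 3) and Pdia4, a disulfide isomerase of the endoplasmic reticulum (r = 0.793). P4ha2 was nearest to Dab2ip (r = 0.867), Mcf2l (r = 0.825) and Zbtb16 (r = 0.813), none of them a gene of the matrix lists. Plod3 was nearest to Emilin1 and had Ltbp3 among its top 3, genes of the elastic fibre and of latent TGF-beta (r = 0.89 and 0.881), and both values fell to 0.607 without HF week 3. Plod1 was nearest to Pacs2 (r = 0.88) and Plod2 to Mtdh (r = 0.809).

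Some genes share exon bases with a neighbour in the GENCODE annotation of GRCm38, and whether the counting used strand is not given in the sources used here. Without strand, Loxl3 shares up to 369 bases with Htra2, Plod2 up to 346 with Gm38391, Plod3 up to 315 with Znhit1, Loxl2 up to 244 and Lox up to 30 with antisense genes, and Pcolce shares 112 bases with Fbxo24 on the same strand and as many with an antisense gene. Loxl1, Plod1, P4ha1 and P4ha2 share none.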

How the data were processed

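Paired-end reads of poly(A) RNA from mouse hearts were the starting point. The authors aligned the reads with TopHat to MGSCv37 (mm9) and deposited FPKM from Cuffdiff. The annotation, strandedness and scaling between libraries are not given in the sources used here. The frozen tissue was the apical portion per the methods, whereas the labels name the whole heart and whole ventricle. The week in a column's name gave its group. The 5 columns named for the week 5 controls were not used, since 4 samples carry that label, and the comparisons planned with that group were not run. Recovery week 9 has 2 columns for 3 labelled samples.

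The 12,759 genes that averaged 0.5 FPKM or more were analysed as log2(FPKM + 0.5) with limma 3.58.1 (R 4.3.3), in 1 model with 8 group means and 16 residual degrees of freedom (eBayes with a trend). Tests were two-sided and a gene was called at a Benjamini-Hochberg adjusted p under 0.05 over all genes. The study used Cuffdiff with a p threshold of 0.05, and whether that p was adjusted is not given in the sources used here; an unadjusted p under 0.05 was run as an alternative. All 10 genes were named. Of the other collagen processing genes those called in HF week 5 against Control week 19 or Recovery week 19 against HF week 5 and the 2 highest in control were named, and of the most similar genes up to 3 for each. The members and lists were chosen with earlier results of these data known. On simulated data for HF week 5 against Control week 19, with 12,759 genes, the fit recovered 73% of 100 genes set to a log2 change of 1 and 96% of 100 set to 2, none in the wrong direction. The 10 genes changed by -0.48 to 0.60 in this comparison, and changes of that size were not simulated. The simulated spread was normal, with no library that stood apart as HF week 5 library 1 did. Without fragment numbers, counting error could not be computed. Alternatives were pseudocounts of 0.1 and 1, no filter, a mean of at least 1 FPKM, median centring, quantile normalization, the unadjusted p, only the groups compared, no HF week 3 libraries, and leaving out each library; fits within 1 set of libraries and without HF week 5 library 1 in the shared spread were added after seeing the data. Python 3.11.15, pandas 2.3.3, numpy 2.4.6 and matplotlib 3.10.9 were used.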

Additional observations from a re-analysis of the deposited data

Results flagged for a closer look

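Of 20 groups of 5 libraries (10 genes in Control week 19 and Recovery week 19), 2 held a library far from the other 4, where chance gives about 1 in 20. Loxl1 was 17.7 FPKM in its lowest Control week 19 library, against 20.9 to 22.2 in the others. P4ha1 was 19.9 FPKM in its highest Control week 19 library, against 14.3 to 15.4.

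The log2 change against Control week 19 was higher at HF week 3 than at HF week 5 for 6 genes by the test of the difference, which is the comparison of HF week 3 with HF week 5 in the limma model. The differences were 1.34 for Lox, 1.12 for Loxl2, 0.92 for Loxl3, 0.74 for Plod2, 0.66 for Plod3 and 0.59 for P4ha1. For Loxl2, Plod2 and P4ha1 the changes had opposite signs at the 2 times. HF week 3 and HF week 5 lie in different sets of libraries, and the set and the time cannot be told apart.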

How the results depend on the processing

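Of the 215 counts of called genes recomputed under another setting, 180 stayed within 1.5 times the value given and 35 did not. A count of 0 that stayed at 0 is among the 180. The value given was 0 for Recovery weeks 7, 9, 11 and 19 against Control week 19. It was also 0 for Recovery week 11 against Recovery week 7 and for Recovery week 13 against Recovery week 11. When each library was left out the count was 0 to 3 in HF week 5 against Control week 19 and 0 to 2 in Recovery week 19 against HF week 5, with 0 in both without HF week 5 library 1. The latter count was 2 with median centring and with quantile normalization, 4 at an unadjusted p, and 3 without the HF week 3 libraries and within the set. Leaving out a library gave 2 to 7 in HF week 3 against HF week 5, 0 to 3 in Recovery week 7 against HF week 5, and 0 to 2 for Recovery week 13 against Control week 19. With only the 2 groups fitted the count was 0 in HF week 3 against HF week 5, in HF week 3 against Recovery week 7 and in Recovery week 7 against HF week 5. It was 1 (Loxl1) for Recovery week 11, against Control week 19 as against Recovery week 7; fewer libraries estimate the spread there. At an unadjusted p the count was 2 in Recovery week 19 against Control week 19, 3, 3 and 4 in Recovery weeks 7, 9 and 11 against Control week 19, 5 in HF week 5 set against Recovery week 7, 4 in Recovery week 11 against Recovery week 7 and 3 in Recovery week 13 against Recovery week 11. Recovery week 13 against Control week 19 gave 0 with median centring and 1 with quantile normalization. Without HF week 5 library 1 in the shared spread, Recovery week 11 gave 1 against Control week 19 (Lox) and 1 against Recovery week 7 (Loxl1), the latter also without the HF week 3 libraries. The share of all genes called in the same fit is not printed with these counts. Where it is given above for a fit without 1 library, it was lower than in the full fit. A moved count thus cannot be told apart here from a shift over all genes. The cause of these shifts was not tested.

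Of 726 recomputed fold changes of single genes, 19 changed sign, all small and none called. In Recovery week 19 against HF week 5 these were Loxl2 (0.05 with median centring, 0.06 with quantile normalization, -0.10 to 0.07 when a library was left out), Plod3 (0.04 with median centring, -0.06 to 0.06 when a library was left out) and Lox (0.01 with quantile normalization, -0.28 to 0.19 when a library was left out). In Recovery week 19 against Control week 19, leaving out a library gave -0.09 to 0.09 for Plod2 and -0.07 to 0.01 for P4ha2. For HF week 3 it gave -0.89 to 0.21 for Plod1 and -0.27 to 0.14 for P4ha2. Median centring moved the median of all genes from -0.047 to -0.111 in HF week 3 against Control week 19 and by less elsewhere. Lox could not be tested at a mean of at least 1 FPKM. No paired analysis was possible because the column numbers are in no label and each animal was killed at 1 time. The number of fragments behind a value is unknown, also for Lox, the lowest of the 10 genes.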
